A study of Mus musculus with 3 samples.

Results

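Matrix metalloproteinases (MMPs) and their tissue inhibitors (TIMPs) were described in LLC1 tumours grown in mouse tibia. The 10 genes are Mmp2, Mmp3, Mmp8, Mmp9, Mmp12, Mmp13, Mmp14, Timp1, Timp2 and Timp3, so 7 proteinases and 3 inhibitors, chosen by symbol from 55357 gene identifiers. LLC1 is a Lewis lung carcinoma line of mouse. Per the labels, 1000000 cells in 10 µL were placed in the tibial marrow of DMP1-Cre Mfn2 knockout, DMP1-Cre Rhot1 knockout and WT mice, 8 weeks old, and the tumours were taken on day 14. DMP1-Cre acts mainly in osteocytes, Mfn2 encodes a GTPase of mitochondrial fusion, and Rhot1 encodes a GTPase of mitochondrial transport. The injected LLC1 cells are the same line in every group. The control is labelled WT and no Cre is named for it, so effects of Cre and of the deletion cannot be told apart.

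Each genotype was 1 droplet 3' single-cell library, made from tumours of 3 mice mixed in equal parts after enzymatic dissociation and a sort for viable cells. No value below therefore has a replicate, no test between genotypes was possible, and every bracketed interval is a 95% interval of counting error only. Molecule counts (UMIs) were summed over the cells of a class and are given as counts per 1000000 UMIs of that class (CPM). The libraries held 9393 to 10016 barcodes and 112088653 to 118223251 UMIs, with medians of 9927 to 12024 UMIs per barcode, and 27739 cells were kept. Of 28867 distinct barcodes, 76 occurred in more than 1 library.

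MMPs are zinc-dependent endopeptidases that cut collagens, elastin, proteoglycans and many non-matrix proteins. Most are secreted as inactive zymogens, while MMP14 is anchored in the plasma membrane. TIMPs block the active site of MMPs, and a complex of MMP14, TIMP2 and proMMP2 is the known route by which MMP2 is activated at the cell surface. In bone, MMP9, MMP13 and MMP14 are known for their part in matrix turnover by osteoclasts, chondrocytes and osteoblasts, and MMP8 is the collagenase stored in neutrophil granules.

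Of the 10 genes, 4 lie together on mouse chromosome 9 (mm10), within 296.0 kb from 7272514 to 7568485. These are Mmp13 (7272514 to 7283331), Mmp12 (7344381 to 7369499), Mmp3 (7445822 to 7455975) and Mmp8 (7558456 to 7568485), all on the plus strand. The other 6 are Mmp2 (chr8:92827291-92853420, plus), Mmp9 (chr2:164940780-164955850, plus), Mmp14 (chr14:54431612-54445364, plus), Timp1 (chrX:20870166-20874735, plus), Timp2 (chr11:118301069-118355740, minus) and Timp3 (chr10:86300372-86349506, plus). The sequences before their RefSeq starts are shown because Mmp3, Mmp12 and Mmp13 hold the 7-base AP-1 element TGAGTCA or TGACTCA close to a start. For Mmp12 that start lies inside the gene, and its other RefSeq start has no match. Mmp8 has no such match either. The part of the element in the levels of these genes was not tested. AP-1 is the Fos and Jun dimer known to bind this element in MMP promoters. Each line gives the 100 bases that end just before the start, plus strand, build GRCm38.p6, with the element in capitals.
Mmp13, chr9:7272414-7272513: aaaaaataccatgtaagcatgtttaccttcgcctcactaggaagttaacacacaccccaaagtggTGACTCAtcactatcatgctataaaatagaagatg
Mmp12, chr9:7347274-7347373: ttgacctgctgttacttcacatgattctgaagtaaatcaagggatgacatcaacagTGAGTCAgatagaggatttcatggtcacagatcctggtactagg
Mmp3, chr9:7445722-7445821: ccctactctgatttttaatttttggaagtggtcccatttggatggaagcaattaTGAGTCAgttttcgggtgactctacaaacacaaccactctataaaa
Mmp8, chr9:7558329-7558428: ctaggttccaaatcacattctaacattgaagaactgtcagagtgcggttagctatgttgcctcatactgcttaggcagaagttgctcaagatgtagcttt

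The element began 35 bases before the start in Mmp13, 44 in Mmp12 and 46 in Mmp3. Both letter orders are each other's reverse complement, so both strands were searched at once. In windows of 250 bases before to 50 after the start, 3 of 9 promoters of the 8 genes matched in RefSeq held it (33.3%), against 1709 of 32851 promoters of all genes (5.2%). Mmp12 has another RefSeq start without a match, whose window (7344147 to 7344446) spans the gene start given above. The Mmp12 start shown with the element lies inside the gene. Mmp2 and Mmp9 had no entry. A match is a string of letters and says nothing about whether AP-1 was bound in these tumours.

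The 10 genes were held by different cells. Clusters were named from marker genes that include none of the 10, and the 10 were kept out of the genes that built the clusters. Tumour-like cells (5803 in the Mfn2 library, 5684 in the Rhot1 library and 4539 in the WT library) carried Krt8 at 638 CPM and Hmga2 at 567 CPM, whereas Krt7, Krt19 and Epcam were at or near 0. Tumour-like cells held 88.8% of all Mmp14 UMIs, 89.4% of Timp1, 87.8% of Mmp2, 81.2% of Timp2 and 79.8% of Mmp3. Over all genes, 283103564 of the 333853189 UMIs of kept cells lay in this class. Timp2 and Mmp3 were lower in tumour-like cells than in all kept cells, at 302 against 316 CPM and 58.6 against 62.3 CPM. Mmp14 (217 against 207 CPM), Timp1 (73.2 against 69.4 CPM) and Mmp2 (8.95 against 8.64 CPM) were only a little higher. Mmp8 was held by neutrophil-like cells, monocyte-like cells and an unnamed myeloid cluster, cluster 4. Mmp9 was held by neutrophil-like, macrophage-like and 27 osteoclast-like cells, Mmp12 mostly by myeloid cells, Mmp13 by tumour-like (30.5%) and cluster 13 cells (15.2%) as well as by myeloid cells, and Timp3 by a small stromal cluster, cluster 20.

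**Figure D1:**
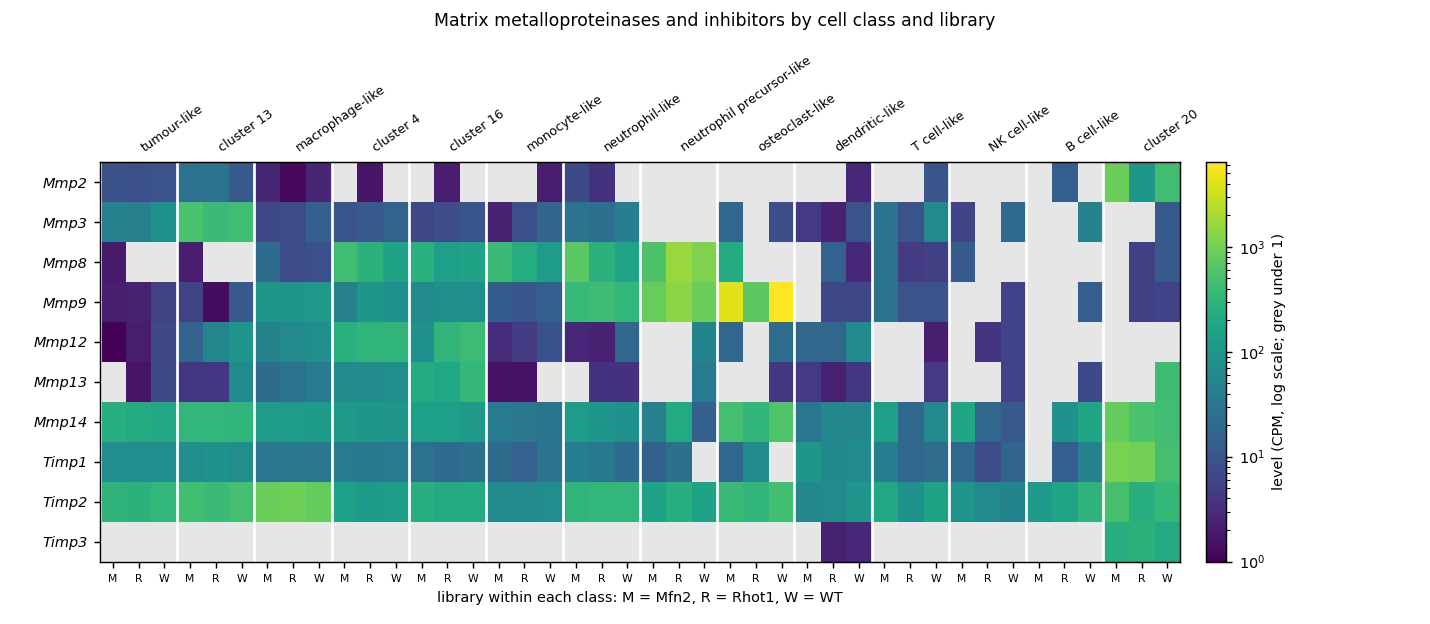
Level of each gene (rows) by cell class (column blocks) and library within each class (M, Mfn2; R, Rhot1; W, WT), in CPM on a log colour scale, with grey for levels under 1 CPM. Mmp14 and Timp2 are spread over many classes, Mmp8 and Mmp9 stand out in neutrophil-like and precursor-like cells, Mmp9 reaches 6398 CPM in osteoclast-like cells of the WT library and Timp3 stands out in cluster 20, at 210 to 283 CPM.

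Over all kept cells, 4 proteinases were lower in both knockout libraries than in the WT library, and Timp1 and Timp2 were nearly level. Mmp3 (stromelysin 1) stood at 46.5 CPM in the Mfn2 library and 43.8 CPM in the Rhot1 library, against 98.4 in the WT library, ratios of 0.472 [0.457 to 0.488] and 0.445 [0.431 to 0.461]. Mmp9 (gelatinase B) stood at 15.5 CPM in the Mfn2 library and 13.4 CPM in the Rhot1 library, against 33.4 in the WT library. Mmp12 (macrophage elastase) was at 10.1 CPM in the Mfn2 library and 14.0 CPM in the Rhot1 library, against 27.5 in the WT library. Mmp13 (collagenase 3) was at 3.85 CPM in the Mfn2 library and 5.12 CPM in the Rhot1 library, against 15.9 in the WT library. In all 4 the knockout libraries stood close to each other and apart from WT.

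Mmp8 went the other way, at 31.0 CPM in the Mfn2 library and 14.8 CPM in the Rhot1 library, against 12.3 in the WT library, ratios of 2.52 [2.37 to 2.69] and 1.20 [1.12 to 1.30]. Only the Mfn2 library stood well above WT. Mmp14, the membrane-type proteinase, was at 228 CPM in the Mfn2 library and 205 CPM in the Rhot1 library, against 187 in the WT library. Timp1 was at 69.8, 70.2 and 68.2 CPM in the Mfn2, Rhot1 and WT libraries, and Timp2 at 308, 296 and 345 CPM. Mmp2 (gelatinase A), at 8.14 to 9.23 CPM, and Timp3 were below 10 CPM in every library. Timp3 stood at 0.133 CPM in the Mfn2 library and 0.563 CPM in the Rhot1 library, against 0.429 in the WT library, from 15, 64 and 46 UMIs. With 10 CPM in at least 1 of the 2 libraries as the minimum, 8 of the 10 genes could be counted. Of these 8, 5 were past a ratio of 1.5 in either direction in the Mfn2 comparison, where 3.40% of 8480 genes were, and 4 in the Rhot1 comparison, where 2.26% of 8545 genes were. The median log2 ratio over all genes was 0.03 in the Mfn2 comparison and 0.08 in the Rhot1 comparison. Both comparisons share the WT library.

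**Figure D2:**
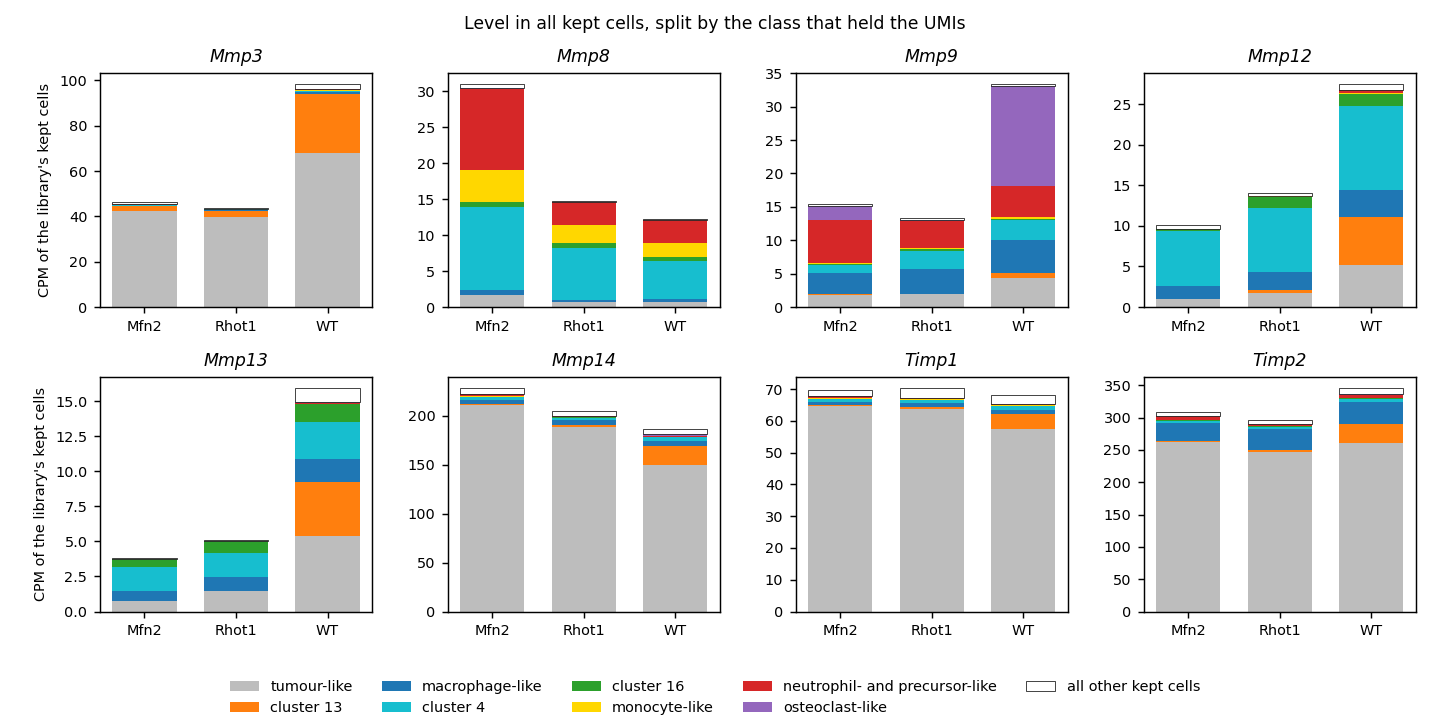
Level of 8 genes in all kept cells of each library (CPM of the library's kept cells), with each bar split by the class that held the UMIs. The WT bar of Mmp3 is made of tumour-like cells (68.0 CPM) and cluster 13 (26.2 CPM), that of Mmp9 holds a large osteoclast-like block (14.9 CPM), and the Mmp8 bar of the Mfn2 library holds 10.9 CPM in neutrophil-like cells, against 1.81 CPM in the WT library.

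Within tumour-like cells Mmp3 was lower in both knockout libraries. It encodes a secreted proteinase with a wide range of substrates that is also known to activate other MMP zymogens. Its level in tumour-like cells was 48 CPM [46.6 to 49.4] in the Mfn2 library and 45.6 CPM [44.3 to 46.9] in the Rhot1 library, against 86.3 CPM [84.4 to 88.3] in the WT library. The ratios were 0.556 [0.536 to 0.576] for Mfn2 over WT and 0.528 [0.509 to 0.548] for Rhot1 over WT. The share of tumour-like cells with an Mmp3 UMI was 22.6% for Mfn2 and 23.8% for Rhot1, against 30.2% for WT. With every cell thinned to 1000 UMIs these shares were 3.54% in the Mfn2 library, 3.9% in the Rhot1 library and 6.54% in the WT library. Expression was uneven, since the 160 tumour-like cells with most Mmp3 UMIs, 1% of the class, held 35.8% of them. Intervals of counting error treat UMIs as independent and are too narrow for such a gene.

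Of the 10 genes, 4 reached 10 CPM in tumour-like cells, and Mmp3 was the 1 past a ratio of 1.5, in both comparisons. Over all genes counted in that class 2.35% of 8220 were past 1.5 in the Mfn2 comparison and 1.78% of 8272 in the Rhot1 comparison.

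The lower Mmp3 level was not shared by all tumour-like clusters. Cluster 1, led by Adm, Areg and Plod2, held 63.1 CPM in the Mfn2 library and 59.8 CPM in the Rhot1 library, against 151 in the WT library. Cluster 2, led by histone genes, held 31.0 CPM in the Mfn2 library and 29.2 CPM in the Rhot1 library, against 53.9 in the WT library. Cluster 7, led by Cxcl1, held 46.3 CPM in the Mfn2 library and 50.8 CPM in the Rhot1 library, against 97.6 in the WT library. In these 3 clusters the knockout intervals lay below the WT interval. Cluster 0 had 29.1 CPM [26.9 to 31.4] in the Mfn2 library and 32.1 CPM [30.1 to 34.2] in the Rhot1 library, against 26.5 CPM [23.9 to 29.3] in the WT library. Cluster 3, led by Col3a1, had 90.7 CPM in the Mfn2 library and 103 CPM in the Rhot1 library, against 84.0 in the WT library. In these 2 clusters Mmp3 was not lower in either knockout library, and the small clusters 14 and 18 were mixed. Cluster 14 had 83.4 CPM [68.3 to 101] in the Mfn2 library and 45.2 CPM [37.2 to 54.4] in the Rhot1 library, against 70.8 CPM [59.5 to 83.6] in the WT library. Cluster 18 had 79.4 CPM [52.7 to 115] in the Mfn2 library and 55.4 CPM [39.2 to 76.0] in the Rhot1 library, against 11.7 CPM [1.42 to 42.4], from 2 UMIs in 14 cells, in the WT library. Only for Rhot1 in cluster 14 did the knockout interval lie below that of WT, and for Mfn2 in cluster 18 it lay above. The makeup of the class also differed, as cluster 0, low in Mmp3, had 1498 cells in the Mfn2 library and 1850 cells in the Rhot1 library, against 829 in the WT library. Clusters were also weighted alike, using only those with 20 or more cells in every library. The log2 ratio of Mmp3 was then -0.49 in the Mfn2 comparison and -0.60 in the Rhot1 comparison. This left out cluster 18, where the Mmp3 point values were higher in both knockout libraries. With all clusters weighted by their cells the log2 ratios were -0.85 and -0.92. With the 10 genes allowed to build the clusters, which changes which cells are tumour-like, they were -0.44 and -0.45, under 1.5-fold in both.

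**Figure D3:**
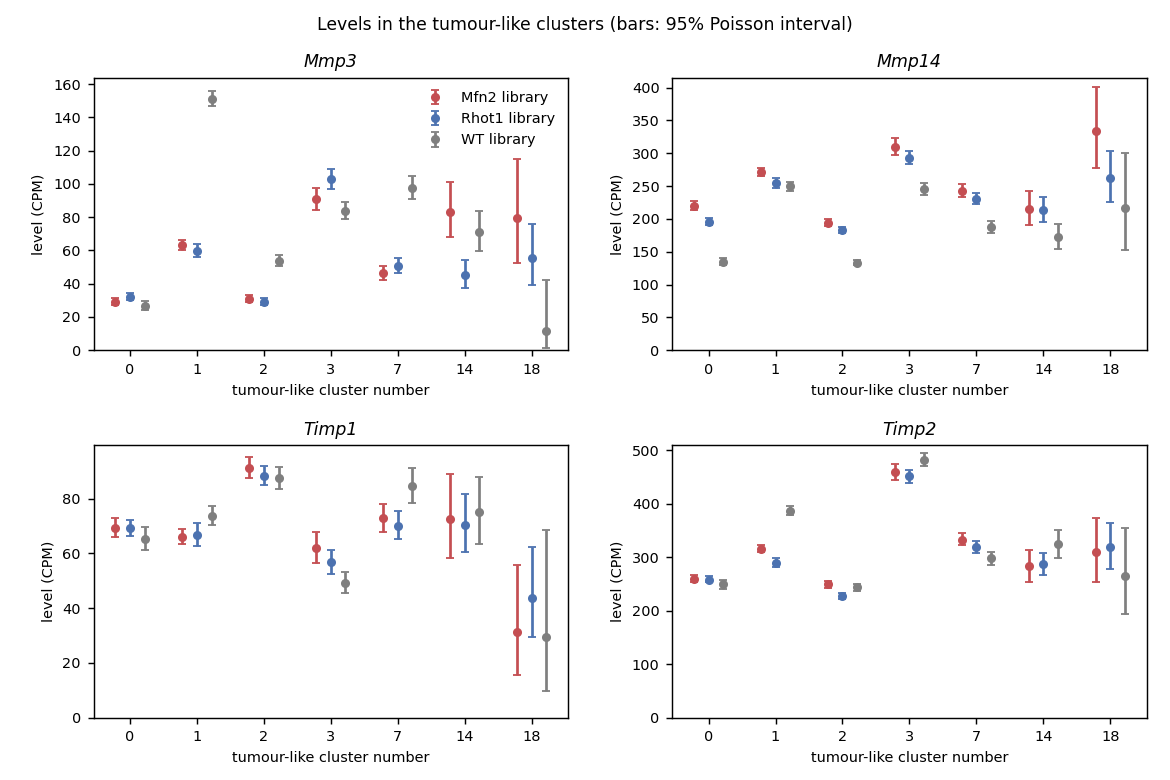
Levels of Mmp3, Mmp14, Timp1 and Timp2 (CPM, axes from 0) in the 7 tumour-like clusters, Mfn2, Rhot1 and WT libraries side by side, with 95% Poisson intervals. Mmp3 in cluster 1 stands at 63.1 and 59.8 CPM in the Mfn2 and Rhot1 libraries, against 151 CPM in the WT library, whereas Mmp14 is higher in the Mfn2 library than in the WT library in every cluster.

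A further source of Mmp3 was cluster 13, which was left unnamed. It carried the tumour markers Krt8 at 554 CPM and Hmga2 at 595 CPM together with Dcn at 1958 CPM and Lum at 1085 CPM, while Postn was at 0 and Col1a2 at 0.521 CPM. It had 32 cells in the Mfn2 library and 49 cells in the Rhot1 library, against 415 in the WT library. Its Mmp3 level was 520 CPM [459 to 588] in the Mfn2 library, with 60.5% of the UMIs in 1 cell, and 397 CPM [353 to 444] in the Rhot1 library, against 437 CPM [421 to 453] in the WT library. Without the 1 cell with most Mmp3 UMIs in each library these levels were 212 CPM [173 to 258] in the Mfn2 library and 319 CPM [280 to 363] in the Rhot1 library, against 406 CPM [391 to 422] in the WT library. The place of the Mfn2 library above or below WT thus rested on 1 cell, whereas the number of such cells differed between libraries with or without it. Cluster 13 held 4.88% of Mmp3 UMIs in the Mfn2 library and 6.0% of them in the Rhot1 library, against 26.6% in the WT library. Of the difference in Mmp3 over all kept cells, tumour-like cells made up -25.9 CPM and cluster 13 made up -23.9 CPM in the Mfn2 comparison, and -28.1 and -23.5 CPM in the Rhot1 comparison. Without cluster 13 the Mmp3 ratios over all kept cells were 0.578 for Mfn2 over WT and 0.54 for Rhot1 over WT. Since the pools hold 3 mice each and no map from cells to mice was used, a cluster found mostly in 1 library may belong to 1 tumour or 1 genotype, which cannot be told apart.

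Mmp14 was found in most tumour-like cells. An Mmp14 UMI was present in 88.1% of these cells for Mfn2, 88.7% for Rhot1 and 85.2% for WT. Its level there was 240 CPM [237 to 243] in the Mfn2 library and 216 CPM [213 to 219] in the Rhot1 library, against 191 CPM [188 to 194] in the WT library. The ratios of 1.26 [1.23 to 1.28] and 1.13 [1.11 to 1.16] were under 1.5. Unlike Mmp3, the point values were higher in the Mfn2 library than in the WT library in all 7 tumour-like clusters. They stood at 220 against 135 CPM in cluster 0, 194 against 133 CPM in cluster 2 and 310 against 246 CPM in cluster 3. In cluster 1 the levels were 271 CPM in the Mfn2 library and 255 CPM in the Rhot1 library, against 250 CPM in the WT library, and the last 2 intervals overlapped. Outside the tumour-like class Mmp14 stood at 126 CPM in the Mfn2 library, 128 in the Rhot1 library and 120 in the WT library in macrophage-like cells.

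Mmp2, the gelatinase that MMP14 and TIMP2 activate, was low in tumour-like cells, at 8.92 CPM in the Mfn2 library, 8.61 in the Rhot1 library and 9.38 in the WT library, and these intervals overlapped. Its highest level was in cluster 20, a group of 72 cells that holds both endothelial and fibroblast markers. Split by which marker set gave most UMIs, 17 cells were on the fibroblast side and held 130 of the 131 Mmp2 UMIs of the cluster, 1027 CPM. The 48 cells on the endothelial side held 1 Mmp2 UMI, although their Mmp14 level was 451 CPM. Of the Mfn2 library's Mmp2 UMIs in cluster 20, 86.1% came from 1 cell, so its levels by library are not compared.

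Timp1 and Timp2 were nearly level in tumour-like cells. TIMP1 is the secreted inhibitor that binds proMMP9 among others, and it stood at 73.6 CPM in the Mfn2 library, 73 CPM in the Rhot1 library and 73.1 in the WT library. The ratios were 1.01 [0.973 to 1.04] and 0.999 [0.966 to 1.03]. Timp2 stood at 299 CPM in the Mfn2 library and 282 CPM in the Rhot1 library, against 330 in the WT library, ratios of 0.906 [0.891 to 0.921] and 0.856 [0.842 to 0.871]. In cluster 1, one of those lower in Mmp3, Timp2 was 315 CPM in the Mfn2 library and 289 CPM in the Rhot1 library, against 387 in the WT library. In cluster 0 it was 259 and 258 CPM in the Mfn2 and Rhot1 libraries, against 249 CPM in the WT library, with overlapping intervals.

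The highest Timp2 level of any class with 20 or more cells in every library was in macrophage-like cells. It was 877 CPM [847 to 909] in the Mfn2 library and 912 CPM [882 to 941] in the Rhot1 library, against 820 CPM [794 to 846] in the WT library, and 86.2% to 88.6% of cells had a UMI. Free RNA from the abundant tumour cells can enter every droplet, so each level in an immune class was set beside the level that tumour RNA would give there, scaled by Krt8. For Timp2 in macrophage-like cells that level was only 32.2 to 34.5 CPM. In neutrophil-like cells Timp2 was 306 CPM in the Mfn2 library, 327 in the Rhot1 library and 331 in the WT library, against tumour-RNA levels of 144, 120 and 129 CPM.

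Other genes in neutrophil-like cells stood close to the level that tumour RNA would give. Their Mmp14 level was 126 CPM in the Mfn2 library, 98.4 in the Rhot1 library and 88.8 in the WT library, beside tumour-RNA levels of 115, 91.9 and 74.3 CPM, and 48.7% of those UMIs lay in 20 of 2045 cells. Their Timp1 level was 44.6 CPM in the Mfn2 library and 34 CPM in the Rhot1 library, against 21.5 in the WT library, beside tumour-RNA levels of 35.4, 31.1 and 28.5 CPM. Mmp3 in macrophage-like cells, 6.76 CPM in the Mfn2 library and 7.65 CPM in the Rhot1 library against 14.5 in the WT library, stood beside tumour-RNA levels of 5.18, 5.51 and 9.03 CPM. The Mmp3 interval of WT macrophage-like cells [11.2 to 18.4] lay above its tumour-RNA level. Its source was not tested, and these Timp1 and Mmp3 values are not read as expression by neutrophil-like or macrophage-like cells.

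Timp3, an inhibitor that is bound to the matrix, was nearly absent outside cluster 20. Cluster 20 held 99 of the Timp3 UMIs of all kept cells (79.2%), with 248 CPM [119 to 457] in the Mfn2 library, 283 CPM [212 to 371] in the Rhot1 library and 210 CPM [147 to 291] in the WT library. These intervals overlap. Timp3 was found on both sides of the cluster, at 300 CPM in the 17 fibroblast-side cells and 230 CPM in the 48 endothelial-side cells. On the fibroblast side 22 of 38 UMIs came from 1 cell of 6 with any, and the level without that cell was 142 CPM [80.9 to 230]. Without the cell with most Timp3 UMIs in each library, the cluster's levels were 178, 179 and 189 CPM in the Mfn2, Rhot1 and WT libraries. Tumour-like cells held 16 Timp3 UMIs in 16026 cells. Timp1 in cluster 20 was 2354 CPM on the fibroblast side and 88 CPM on the endothelial side, and 119 of the 298 fibroblast-side UMIs came from 1 cell, without which that level was 1492 CPM.

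Mmp8 was higher in the Mfn2 library than in the WT library in all 5 myeloid groups with 70 or more cells per library. Of these, cluster 16 had 44.3% of its Mmp8 UMIs in the Mfn2 library in 1 cell. In neutrophil-like cells (910 cells in the Mfn2 library, 458 in the Rhot1 library and 677 in the WT library) Mmp8 was 679 CPM [641 to 718] in the Mfn2 library and 277 CPM [242 to 315] in the Rhot1 library, against 167 CPM [144 to 192] in the WT library. The ratios were 4.06 [3.49 to 4.75] for Mfn2 over WT and 1.66 [1.36 to 2.02] for Rhot1 over WT. With finer clusters (resolution 2) the log2 ratio for Rhot1 over WT was 0.38, under 1.5-fold, against 0.73. In cells thinned to 1000 UMIs, an Mmp8 UMI was found in 47.8% of neutrophil-like cells of the Mfn2 library and 19.6% of the Rhot1 library, against 14.7% of the WT library. The 3 libraries kept the order Mfn2, Rhot1, WT in both measures.

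Monocyte-like cells had the same order. Their Mmp8 level was 393 CPM [359 to 429] in the Mfn2 library and 228 CPM [203 to 256] in the Rhot1 library, against 127 CPM [109 to 146] in the WT library, ratios of 3.10 [2.63 to 3.68] and 1.80 [1.5 to 2.17]. Cluster 4, led by genes that include Arg1, Ppbp and Pf4, had a marker score for macrophages only (0.297) and was left unnamed. It had no macrophage marker among its 10 leading genes, whereas Ppbp and Pf4 are on the list of megakaryocyte markers. Its Mmp8 level was 442 CPM [418 to 466] in the Mfn2 library and 280 CPM [261 to 300] in the Rhot1 library, against 157 CPM [145 to 170] in the WT library. The ratios there were 2.81 [2.55 to 3.11] and 1.78 [1.60 to 1.98]. Cluster 16, led by interferon-response genes, had 262 CPM in the Mfn2 library, with 44.3% of the UMIs in 1 cell, and 139 CPM in the Rhot1 library, against 158 CPM in the WT library. Macrophage-like cells were low in Mmp8, at 22.2 CPM in the Mfn2 library and 7.40 CPM in the Rhot1 library, against 8.42 in the WT library.

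The levels that free RNA would give were small beside these Mmp8 values. Scaled by Krt8, tumour RNA would give under 1 CPM in each of these classes. Scaled by Retnlg, a neutrophil gene, neutrophil RNA would give 5.98, 4.43 and 0.536 CPM in monocyte-like cells and 1.55, 0.472 and 0.208 CPM in cluster 4 of the Mfn2, Rhot1 and WT libraries. In macrophage-like cells it would give 4.79 CPM in the Mfn2 library, 0.61 in the Rhot1 library and 0.72 in the WT library.

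Neutrophil and precursor markers followed the order of Mmp8 in some of these cells and not in others. In monocyte-like cells the summed level of the 8 neutrophil markers, all detected, was 4432 CPM in the Mfn2 library and 2684 CPM in the Rhot1 library, against 1733 in the WT library, the same order as Mmp8. In neutrophil-like cells that sum was 98360 CPM in the Mfn2 library and 107008 CPM in the Rhot1 library, against 98502 in the WT library. The 5 neutrophil precursor markers summed to 127 CPM in neutrophil-like cells of the Mfn2 library (3 of 5 detected) and 46.2 CPM of the Rhot1 library (3 of 5), against 75.0 CPM of the WT library (5 of 5). In cluster 4 the neutrophil markers summed to 734 CPM in the Mfn2 library and 356 CPM in the Rhot1 library, against 533 in the WT library, so the Rhot1 library, higher in Mmp8 than WT, was lower in these. In macrophage-like cells the neutrophil markers summed to 854 CPM in the Mfn2 library and 390 CPM in the Rhot1 library, against 515 in the WT library. That is the order of Mmp8 in this class. The precursor markers there summed to 1.69, 2.96 and 6.26 CPM in the Mfn2, Rhot1 and WT libraries, a different order. The part of these marker genes in the Mmp8 difference was not tested.

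Neutrophil precursor-like cells had the highest pooled Mmp8 level, 1164 CPM in 54 cells. It was 554 CPM [388 to 768] in 11 cells of the Mfn2 library and 1650 CPM [1380 to 1957] in 18 cells of the Rhot1 library, against 1168 CPM [993 to 1366] in 25 cells of the WT library. This is the reverse of the order in neutrophil-like cells for the Mfn2 library, and 47.2% of its UMIs came from 1 cell. Lcn2, whose protein lipocalin 2 binds MMP9 and is also stored in neutrophil granules, was 2143 CPM in neutrophil-like cells of the Mfn2 library, against 1249 CPM of the WT library, a ratio of 1.71. In monocyte-like cells Lcn2 was 279 CPM in the Mfn2 library and 205 CPM in the Rhot1 library, against 129 in the WT library.

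**Figure D4:**
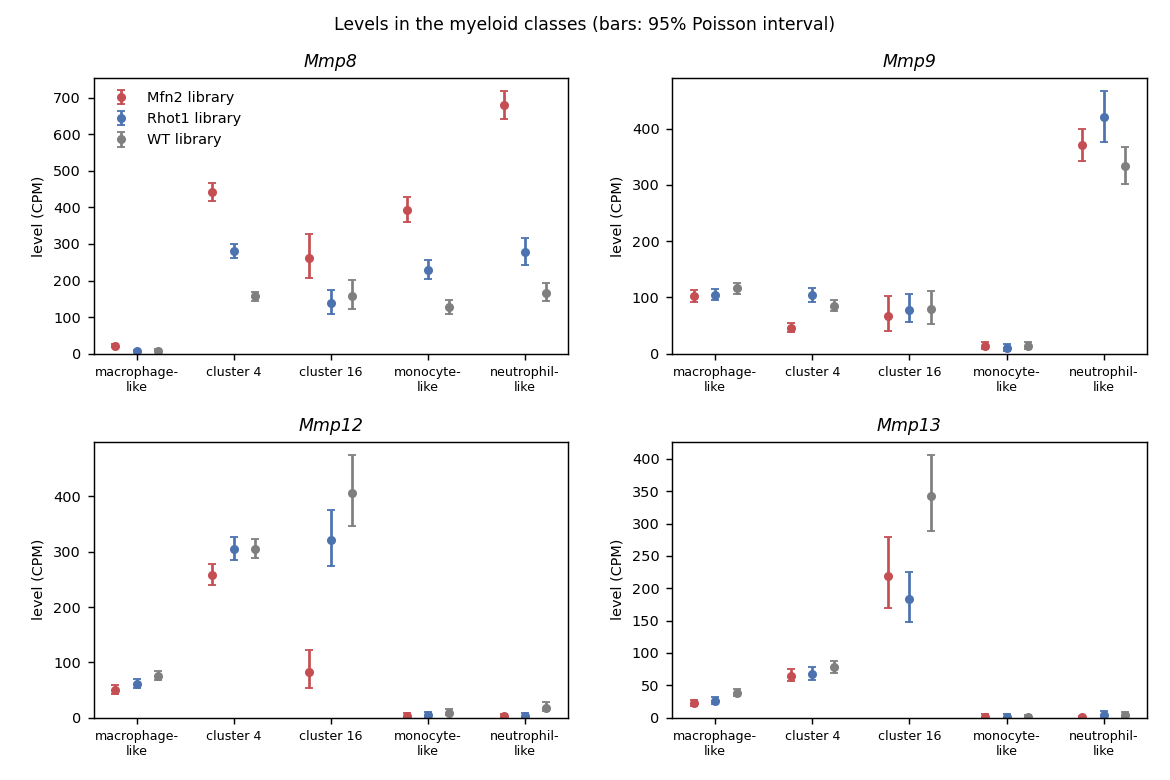
Levels of Mmp8, Mmp9, Mmp12 and Mmp13 (CPM, axes from 0) in 5 myeloid groups, Mfn2, Rhot1 and WT libraries side by side, with 95% Poisson intervals. Mmp8 stands in the order Mfn2, Rhot1, WT in cluster 4, monocyte-like and neutrophil-like cells (679, 277 and 167 CPM in the last), whereas Mmp9 in neutrophil-like cells spans only 333 to 420 CPM.

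Mmp9 did not share the Mmp8 pattern, although the same granulocytes held it. In neutrophil-like cells it was 371 CPM [343 to 400] in the Mfn2 library and 420 CPM [377 to 467] in the Rhot1 library, against 333 CPM [301 to 368] in the WT library. The ratios of 1.11 [0.98 to 1.26] and 1.26 [1.09 to 1.46] were under 1.5. Macrophage-like cells had 103, 105 and 116 CPM in the Mfn2, Rhot1 and WT libraries, with overlapping intervals. Cluster 4 had 45.9 CPM [38.5 to 54.4] in the Mfn2 library and 104 CPM [92.6 to 116] in the Rhot1 library, against 85.5 CPM [76.3 to 95.5] in the WT library. The Mfn2 value was the low one, at a ratio of 0.537 [0.436 to 0.659], while 32.5% of the Rhot1 UMIs in cluster 4 came from 1 cell.

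Much of the gap in Mmp9 over all kept cells lay in osteoclast-like cells. These carried Acp5 at 13270 CPM and Ctsk at 7746 CPM, with Calcr at 0. The name is uncertain, since the cluster's marker score was 0.833 for osteoclasts and 0.742 for mast cells or basophils, and the mast cell genes Cma1 and Cpa3 were among its 10 leading genes. Cell by cell, 26 had more UMIs of osteoclast markers and 1, of the WT library, more of mast cell or basophil markers. The Mmp9 UMIs lay in the 26, and the cell of the WT library had none. There were 4 such cells in the Mfn2 library and 2 such cells in the Rhot1 library, against 21 in the WT library. Their Mmp9 level was 4316 CPM in the Mfn2 library and 707 CPM in the Rhot1 library, against 6398 in the WT library, the highest Mmp9 level of any class. These 27 cells held 13.7% of all Mmp9 UMIs in the Mfn2 library and 2.03% of them in the Rhot1 library, against 44.5% in the WT library. Without them the log2 ratios of Mmp9 over all kept cells were -0.47 for Mfn2 over WT and -0.50 for Rhot1 over WT, against -1.11 and -1.31 with them, so Mmp9 was then no longer past 1.5-fold. With 2 to 4 cells in the knockout libraries, no level of osteoclast-like cells is compared between genotypes. How many such cells were freed from bone by the dissociation is not known, and its part was not tested.

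Mmp12 was above all a gene of cluster 4, which held 48.8% of its UMIs. The level there was 258 CPM [240 to 277] in the Mfn2 library and 305 CPM [286 to 326] in the Rhot1 library, against 305 CPM [288 to 324] in the WT library, ratios of 0.846 and 1.0. Macrophage-like cells had 50.4 CPM [43.3 to 58.4] in the Mfn2 library and 61.4 CPM [54.0 to 69.5] in the Rhot1 library, against 75.6 CPM [67.9 to 83.9] in the WT library. Cluster 16 had 83.0 CPM in the Mfn2 library and 322 CPM in the Rhot1 library, against 407 in the WT library, the lowest Mfn2 ratio of these groups at 0.204 [0.128 to 0.313]. It rests on 25 UMIs in 70 cells of the Mfn2 library, 52.0% of them in 1 cell.

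Mmp13 had its highest level in cluster 16, at 219 CPM in the Mfn2 library and 184 CPM in the Rhot1 library, against 343 in the WT library, where 48.1% of the UMIs came from 1 cell. In cluster 4 it was 65.0 CPM [56.1 to 74.9] in the Mfn2 library and 67.8 CPM [58.7 to 77.9] in the Rhot1 library, against 77.9 CPM [69.1 to 87.4] in the WT library. Macrophage-like cells had 22.2 CPM in the Mfn2 library and 26.4 CPM in the Rhot1 library, against 38.2 in the WT library, ratios of 0.582 [0.441 to 0.763] and 0.691 [0.538 to 0.883]. The 71 Mmp13 UMIs of cluster 20 were all in 1 cell of the WT library.

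Much of the gap in Mmp12 and Mmp13 over all kept cells lay in cells that carried tumour markers. Both genes were low in the tumour-like class, but not in WT cells of the unnamed tumour-marker cluster described next. In tumour-like cells Mmp12 was 1.09 CPM [0.894 to 1.32] in the Mfn2 library and 1.98 CPM [1.71 to 2.28] in the Rhot1 library, against 6.62 CPM [6.08 to 7.19] in the WT library. Mmp13 was 0.848 CPM [0.676 to 1.05] in the Mfn2 library and 1.67 CPM [1.42 to 1.94] in the Rhot1 library, against 6.87 CPM [6.32 to 7.45] in the WT library. The 1% of tumour-like cells with most UMIs held 64.0% of Mmp12 and 71.0% of Mmp13 UMIs. RNA of the myeloid cells that hold these genes (macrophage-like, cluster 4 and cluster 16 cells), scaled by the macrophage gene C1qa, would give tumour-like cells 0.871 CPM of Mmp12 in the Mfn2 library and 1.24 CPM in the Rhot1 library, against 1.28 CPM in the WT library. Scaled by Arg1, a leading gene of cluster 4, it would give 0.668 and 1.02 CPM in the Mfn2 and Rhot1 libraries, against 1.02 CPM in the WT library. For Mmp13 the levels scaled by C1qa were 0.304 and 0.38 CPM in the Mfn2 and Rhot1 libraries, against 0.47 CPM in the WT library. The Mmp12 intervals lay above the levels that such RNA would give in every library. The margin was narrow in the Mfn2 library and widest in the WT library. Mmp13 also stood above these levels in every library. T cell-like cells, which should lack both genes, had 0 UMIs of either in the Mfn2 and Rhot1 libraries, where 3 UMIs would be 5.97 and 7.12 CPM, and in the WT library 2.11 CPM [0.256 to 7.63] of Mmp12 and 4.22 CPM [1.15 to 10.8] of Mmp13. The tumour-like levels of the WT library lay inside these intervals, so this depth does not separate them. The 8 macrophage markers, all detected, summed in the tumour-like class to 130 CPM for the Mfn2 library and 153 CPM for the Rhot1 library, against 129 CPM for the WT library. The part of myeloid RNA in the difference was not tested further. In cluster 1 Mmp13 was 0.795 CPM in the Mfn2 library and 1.33 CPM in the Rhot1 library, against 12.1 in the WT library. In cluster 3 Mmp12 was 3.20 CPM in the Mfn2 library and 3.12 CPM in the Rhot1 library, against 17 in the WT library.

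Cluster 13 added to this gap. Its Mmp12 level was 16.3 CPM in the Mfn2 library and 55.7 CPM in the Rhot1 library, against 98.2 in the WT library. Its Mmp13 level was 4.06 CPM, from 2 UMIs, in the Mfn2 library and 3.98 CPM, from 3 UMIs, in the Rhot1 library, against 63.6 CPM in the WT library, where 37.7% of the UMIs came from 1 cell. Of the 8 genes counted in cluster 13, 4 were past 1.5-fold in each comparison (Mmp2 higher, Mmp9, Mmp12 and Mmp13 lower), where 27.4% of all genes were for Mfn2 and 21.5% for Rhot1. Without cluster 13 the ratios over all kept cells were 0.439 and 0.598 for Mmp12 and 0.299 and 0.399 for Mmp13, for Mfn2 and Rhot1 over WT.

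Counted by class, 1 to 4 members were past 1.5-fold. In macrophage-like cells 3 of 8 were in the Mfn2 comparison (Mmp8 higher, Mmp3 and Mmp13 lower), where 6.72% of 8079 genes were, and 1 of 7 in the Rhot1 comparison (Mmp3 lower), where 5.01% of 8105 genes were. In cluster 4 there were 3 of 8 in the Mfn2 comparison (Mmp8 higher, Mmp3 and Mmp9 lower), against 9.22% of 7778 genes, and 1 of 8 in the Rhot1 comparison (Mmp8 higher), against 8.55% of 7803 genes. Monocyte-like cells had 2 of 6 (Mmp8 higher, Mmp3 lower), against 15.2% of 7927 genes, and 3 of 6 (Mmp8 higher, Mmp3 and Timp1 lower), against 13.0% of 7926 genes. Neutrophil-like cells had 3 of 7 (Mmp8 and Timp1 higher, Mmp12 lower), against 27.6% of 8258 genes, and 4 of 7 (also Mmp3 lower), against 25.0% of 8108 genes. Of these, Timp1 in neutrophil-like cells stood close to the tumour-RNA level, and Mmp3 in macrophage-like cells did so in the knockout libraries. As given above, their counts are not read as changes in those cells. Mmp3 in neutrophil-like cells, at 29.2, 24.3 and 42.2 CPM in the Mfn2, Rhot1 and WT libraries, stood beside tumour-RNA levels of 23.1, 19.4 and 33.7 CPM. In monocyte-like cells it was 2.32, 8.56 and 17.5 CPM beside 4.08, 4.78 and 9.75 CPM. In cluster 4 it was 9.86, 11.6 and 16.1 CPM beside 6.76, 4.71 and 9.96 CPM. The intervals of WT monocyte-like cells [11.6 to 25.5] and of cluster 4 in the Rhot1 [8.02 to 16.2] and WT libraries [12.3 to 20.8] lay above those levels. The source of this excess was not tested, and none of these Mmp3 values is read as expression there. In WT neutrophil-like cells 76.2% of Mmp12 UMIs came from 1 cell. In the small cluster 16 there were 4 of 8 for Mfn2, against 42.5% of all genes, and 1 of 8 for Rhot1, against 35.5%. Mmp8 was past 1.5-fold and higher in the Mfn2 library in each of these groups. In cluster 16, 44.3% of the Mmp8 UMIs of that library lay in 1 cell.

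**Figure D5:**
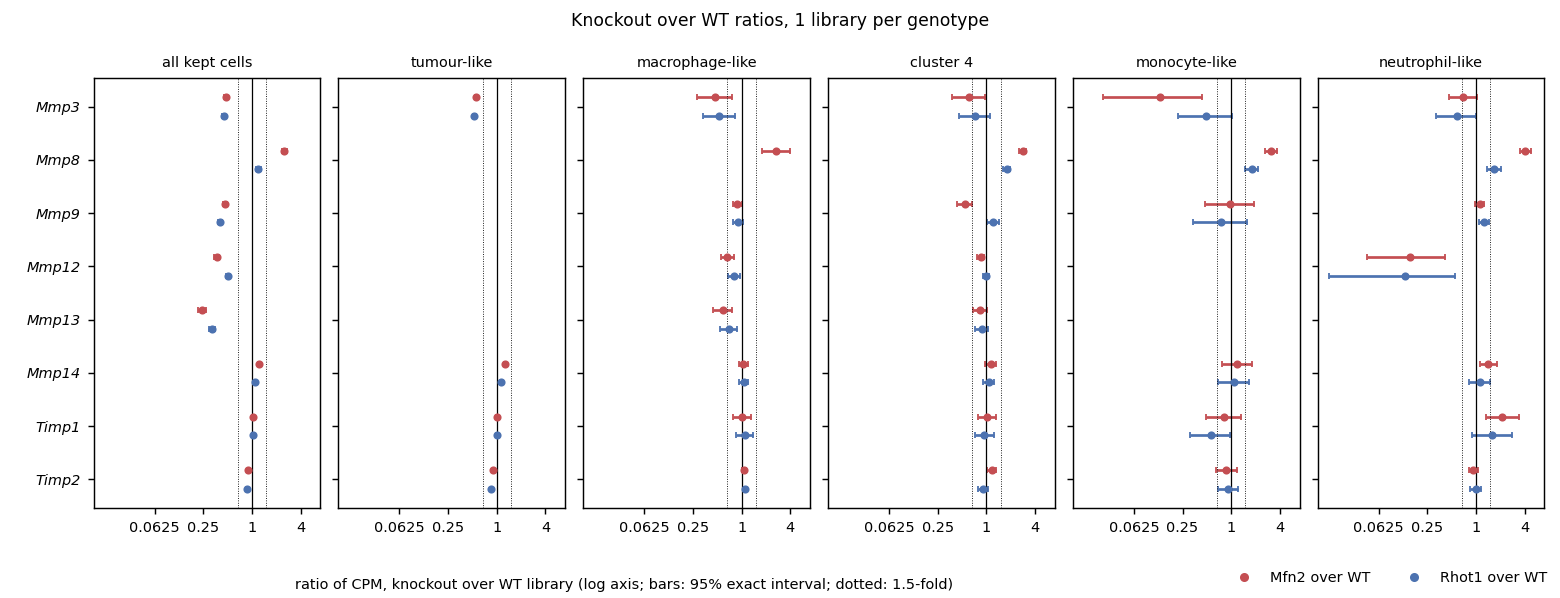
Ratio of CPM in each knockout library over the WT library (log axis) for the genes at 10 CPM or more in at least 1 library of the pair, in all kept cells and 5 classes, with 95% exact intervals of counting error and dotted lines at 1.5-fold. Mmp3 lies left of 1 in every panel, Mmp8 lies right of 1.5-fold for Mfn2 over WT wherever it is drawn, and Mmp14, Timp1 and Timp2 lie near 1 in tumour-like cells.

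Other genes of the MMP system were described from fixed lists. Among the other MMPs and Timp4, 2 of 17 reached 10 CPM in tumour-like cells. Of these, Mmp19, a secreted MMP, was 20.9 CPM in the Mfn2 library, against 12.4 in the WT library (1.69), and 17 CPM in the Rhot1 library, against the same 12.4 (1.37). In macrophage-like cells Mmp19 was 94.6 CPM in the Mfn2 library, against 56.1 in the WT library. In cluster 4, where its pooled level was highest (105 CPM), it was lower, at 92.5 CPM in the Mfn2 library and 92.7 CPM in the Rhot1 library, against 125 CPM in the WT library. Mmp10 (stromelysin 2), had its highest pooled level, 40.4 CPM, in cluster 13, the cluster highest in Mmp3. Mmp25, a membrane-anchored MMP known from neutrophils, had its highest pooled level, 136 CPM, in neutrophil precursor-like cells.

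Of 19 genes that activate, dock or clear MMPs, 11 were counted in tumour-like cells for Mfn2 over WT and 1, Lcn2, was past 1.5-fold, at 13.1 against 5.46 CPM. Lcn2 was far higher in neutrophil-like cells, and the part of free neutrophil RNA in its tumour-like level was not tested. In neutrophil-like cells 3 of 10 genes of this list were higher and 2 lower in the Mfn2 library, where 18.8% of all genes counted were higher and 8.74% lower. The lower ones were Plaur, the urokinase receptor, at 139 against 275 CPM, and Thbs1 (thrombospondin 1) at 891 against 1981 CPM. Of 15 ADAM and ADAMTS proteinases that TIMPs can block, none of 7 was past 1.5-fold in tumour-like cells in either comparison, and their median log2 ratios were -0.10 and 0.04. Adam8, found in myeloid cells, was 315 CPM in monocyte-like cells of the Mfn2 library and 277 CPM of the Rhot1 library, against 179 CPM of the WT library.

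Some of the known inducers and transcription factors of MMP genes were lower in cluster 4 and neutrophil-like cells of the Mfn2 library, and few in the other myeloid classes. In cluster 4, 8 of 18 were lower and none higher for Mfn2 over WT, where 3.15% of all genes counted were lower, with a median log2 ratio of -0.49 beside 0.08 over all genes counted. Il1b, an inducer of MMPs in many cells, was 729 CPM in the Mfn2 library, against 1979 CPM in the WT library (0.368). Il1a, its relative, was 1.36 CPM in the Mfn2 library, against 12.3 CPM in the WT library (0.111), and the AP-1 gene Fos was 1152 against 1794 CPM (0.642). In neutrophil-like cells 7 of 18 were lower and none higher, where 8.74% of all genes counted were lower, with Il1b at 2944 against 7559 CPM (0.39) and Tnf at 8.82 against 53.4 CPM (0.165). In macrophage-like cells 2 of 16 were lower and 1 higher, where 3.92% of all genes counted were lower and 2.80% higher, and in monocyte-like cells 1 of 15 was lower, where 7.57% were. For Rhot1 over WT, 5 of 18 were lower in cluster 4, among them Jun at 970 against 1510 CPM (0.643), and 4 of 18 in neutrophil-like cells, where 2.61% and 12.1% of all genes counted were lower. In tumour-like cells 1 of 15 was lower in each comparison, Il1b for Mfn2 over WT at 6.20 against 13.1 CPM and Fos for Rhot1 over WT at 87.7 against 155 CPM. Il1b was far higher in neutrophil-like cells and cluster 4, and the part of their free RNA in its tumour-like level was not tested.

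The order of levels over the 11 classes with 20 or more cells in each library differed by gene. For Mmp3, cluster 13 (397 to 520 CPM over libraries) came first and did not meet tumour-like cells (45.6 to 86.3 CPM), whose range met that of the shallow tumour-marker clusters (19.5 to 74.5 CPM). For Mmp8, cluster 4 (157 to 442), neutrophil-like (167 to 679), monocyte-like (127 to 393) and cluster 16 (139 to 262 CPM) all overlapped, and macrophage-like cells (7.40 to 22.2 CPM) lay below them. For Mmp9, neutrophil-like cells (333 to 420 CPM) lay above macrophage-like cells (103 to 116 CPM), which met cluster 4 (45.9 to 104 CPM). For Mmp12, cluster 16 (83.0 to 407 CPM) met cluster 4 (258 to 305 CPM), which lay above macrophage-like cells (50.4 to 75.6 CPM). For Mmp13, cluster 16 (184 to 343), cluster 4 (65.0 to 77.9) and macrophage-like cells (22.2 to 38.2 CPM) did not meet. For Mmp14, cluster 13 (325 to 333 CPM) lay above tumour-like cells (191 to 240 CPM). For Timp1, cluster 13 (73.2 to 91.6), tumour-like (73 to 73.6) and dendritic-like cells (60.1 to 104 CPM) overlapped. For Timp2, macrophage-like cells (820 to 912 CPM) lay above cluster 13 (391 to 486 CPM), which lay above neutrophil-like cells (306 to 331 CPM). For Mmp2, cluster 13 (11.7 to 29.2 CPM) lay above tumour-like cells (8.61 to 9.38 CPM).

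The genes whose levels were most like each member's over 22 clusters of 50 or more cells were found by Pearson's r of log2(CPM + 10) among 6531 genes. The clusters share 3 libraries, and r is a description. Mmp8 was most like Hp (0.97), Pygl (0.964) and F5 (0.963), and Mmp9 was most like Slc40a1 (0.946), Alox5 (0.925) and Fpr2 (0.899). The 27 osteoclast-like cells, where pooled Mmp9 was highest (5349 CPM), were too few to enter these clusters. Mmp3 was most like Stra6 (0.913), Fgf7 (0.908) and Ank (0.888), Mmp12 like Ccl7 (0.851), Ccl24 (0.837) and Slc7a8 (0.824), and Mmp13 like Serpinb2 (0.808), Lhfpl2 (0.807) and Pdpn (0.793). Mmp14 was most like Lix1l (0.921), Arhgef12 (0.904) and Kif3a (0.904), and Timp2 like Cd63 (0.863), Serpinb6a (0.831) and Tspan4 (0.761). For Timp1 (Kctd17, 0.889, Gng11, 0.887, and Tie1, 0.882), Mmp2 (Cd248, 0.985, Slc9a3r2, 0.967, and Pdgfrb, 0.964) and Timp3 (Dll4, 1.0, Snhg18, 0.999, and Mfap5, 0.999) the values rest largely on cluster 20, which held Timp1 at 805 CPM with 37.1% of the UMIs in 1 cell.

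Osteocytes, the cells in which DMP1-Cre acts, were not found as a class. Over all kept cells Dmp1 was at 0.0539 CPM, Sost at 0.003 CPM and Mepe at 0. The transcript Mfn2 was at 20.3 CPM in the Mfn2 library, 20.7 in the Rhot1 library and 16.2 in the WT library, and the transcript Rhot1 at 23.7, 25.2 and 23.1 CPM. Tumour and immune cells make up nearly all of these UMIs, so the levels do not check the genotypes. Levels in pooled cells do not tell fewer expressing cells and less RNA per cell apart, and the shares of cells with a UMI are given above for that reason.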

How the data were processed

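Single-cell 3' RNA was measured in 3 libraries, DMP1-Cre Mfn2, DMP1-Cre Rhot1 and WT, each a pool of 3 mice with no map from cells to mice used here. The values are whole UMI counts, as deposited. Per the file headers the software was Cell Ranger 7.0.0, the submitters' processing notes name mm10, and the setting for intronic reads is not given in the sources used here. A cell needed 300 genes and no more than 15% mitochondrial UMIs, and Scrublet removed 2.36% to 3.12% as doublets. Clusters came from 2000 variable genes, 30 components and 15 neighbours (scanpy 1.11.5, leidenalg 0.10.2, resolution 1). The 10 genes were left out of the variable genes, where 6 would have entered.

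Clusters were named from fixed markers, but the scoring rule was set after seeing clusters. Unnamed shallow clusters with tumour markers (2138 cells) stayed apart. Levels have exact Poisson intervals and ratios exact conditional intervals (scipy 1.17.1). A gene was counted at a ratio past 1.5 with 10 CPM or more in 1 library. No p-value was computed. The genes that scale the free-RNA levels (Krt8, Retnlg, C1qa and Arg1) were chosen after seeing the data. Alternatives changed the cell filter, doublets, resolution, variable genes, scaling, depth, top cells, cluster weights and the level filter. Depth was 9927 to 12024 UMIs per barcode at the median. On simulated counts in tumour-like cells, Mfn2 over WT, 95.3% of genes had the true ratio inside the interval. These counts were drawn from the Poisson model that the interval assumes. They check the calculation only, and hold no spread between cells or mice. Genes named beside the 10 are those with the 2 highest and 2 lowest ratios or the 3 highest levels of each list, and the 3 most alike. The genes and lists were chosen with earlier results of these data known. Coordinates are from GENCODE M21 and promoters from RefSeq.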

Additional observations from a re-analysis of the deposited data

Results flagged for a closer look

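Mmp9 stood on opposite sides of 1 in a pair of cell groups under the same comparison. For Mfn2 over WT its ratio was 0.537 [0.436 to 0.659] in cluster 4 and 2.72 [1.08 to 7.21] in T cell-like cells. The T cell-like value rests on 13 UMIs in the Mfn2 library, 76.9% of them in 1 cell, against 9 UMIs in the WT library, and the difference between the cell groups was not tested.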

How the results depend on the processing

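With 1 library per genotype no replicate could be left out. No paired analysis was possible because each genotype has 1 library, so the groups share fewer than 2 replicate numbers. Counts are of the 10 genes past 1.5-fold. The share over all genes is not given for each alternative, so these counts cannot be read against the shares above. With clusters weighted alike the Mfn2 comparison had 3 in all kept cells (5 as reported) and 0 in tumour-like cells (1 as reported). Weighting alike used only clusters with 20 or more cells in every library, which leaves out cluster 18 and osteoclast-like cells. Without a filter on low values, the tumour-like counts were 6 for Mfn2 and 4 for Rhot1 (1 each as reported), the macrophage-like Rhot1 count was 2 (1), the monocyte-like counts 4 and 6 (2 and 3) and the neutrophil-like Mfn2 count 5 (3). With unnamed tumour-marker clusters added, or with doublets kept, the tumour-like counts were 3 in each comparison, and with doublets kept the monocyte-like Mfn2 count was 4. With the 10 genes allowed to build the clusters, the tumour-like counts were 0 and 0, the macrophage-like Rhot1 count 2 and the monocyte-like Mfn2 count 4. The other 75 counts stayed within 1.5 times. For Rhot1 over WT, the log2 ratio of Mmp9 in all kept cells was 0.13 with clusters weighted alike (-1.31 as reported), and that of Mmp12 in neutrophil-like cells was 0.24 at resolution 2 (-2.90 as reported). The cause was not tested. Mmp3 in tumour-like cells was lower under every alternative run, at log2 -0.44 to -1.14 for Mfn2 and -0.45 to -1.22 for Rhot1. Mmp8 in neutrophil-like cells was 1.90 to 2.44 for Mfn2, and 0.38 at resolution 2 for Rhot1, under 1.5-fold. Leaving out cluster 13 or osteoclast-like cells was chosen after seeing the data. Levels under 10 CPM are limited by depth in the small classes.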
